A study of Oryza longistaminata with 9 samples.

Results

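Cyclins, cyclin-dependent kinases (CDKs) and the small proteins that dock on or inhibit them were described in anthers of Oryza longistaminata, a wild African rice. A gene belonged to the set when its description in the deposited table named a lettered cyclin, a cyclin-dependent kinase or a cyclin N-terminal or C-terminal domain, and the proliferating cell nuclear antigen was left out. Of 46327 genes in the table, 38 met this rule. They were 26 cyclins, 5 CDKs, 1 CDK regulatory subunit and 6 CDK inhibitors, spread over 11 chromosomes and 1 unplaced scaffold. Anthers had been taken from 6-mm spikelets (Ls-6mm, stage 6, with microspore mother cells next to the tapetum) and from 4-mm spikelets (Ls-4mm, stage 4, with primary sporogenous cells), with 3 libraries per stage. The plants were field-grown, no treatment or mutation is named, and the stages were set by spikelet length. The sources used here do not say if each library is a plant of its own, and the p-values then measure the spread between these libraries alone, which may be technical. Libraries of 8.5-mm spikelets were not analysed here.

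Cyclins have no enzyme activity of their own. They bind a CDK, switch it on and direct it to its substrates, and are then degraded, so that waves of different cyclins drive a cell through DNA synthesis and division. B-type cyclins act at entry into mitosis, CKS proteins dock the kinase on phosphorylated substrates, and the plant inhibitors of the KRP family hold cyclin-CDK complexes inactive. Not every CDK runs the cell cycle: several classes phosphorylate RNA polymerase II or act in splicing. In the anther, rounds of cell division build the sporogenous cells and the wall layers before the sporogenous lineage leaves mitosis for meiosis.

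The Ls-6mm libraries held 17076800 to 21232663 counts in all, and the Ls-4mm libraries 14509449 to 16684146. Levels are given as CPM, the counts scaled to a library of 1000000 after TMM scaling, and a gene was called when the Benjamini-Hochberg adjusted p of edgeR's quasi-likelihood test, taken over 23691 tested genes, was under 0.05. The stages differed widely: 80.6% of the tested genes were called, 42.0% as higher and 38.6% as lower in Ls-6mm. The test therefore separates few genes, and the size of each change is given beside it. Fold changes are Ls-6mm over Ls-4mm, and the median log2 fold change over all tested genes was 0.04. In bulk anthers, fewer cells of a type and less RNA per cell cannot be told apart.

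Of the 38 genes, 33 had enough counts to be tested and 32 of these were called, 11 higher and 21 lower in Ls-6mm. That is 97.0% of the tested cyclin and CDK genes, beside 80.6% of all tested genes. Changes of at least 2-fold were found for 11 lower genes, or 33.3% of those tested, beside 14.4% of all tested genes. They were found for 7 higher genes, or 21.2%, beside 24.7% of all tested genes. Of the 11 higher genes, 2 had 0 counts in every Ls-4mm library and passed the filter through Ls-6mm alone, so their direction was fixed. The median log2 fold change of the 33 genes was -0.44 and their median absolute change 1.06, beside 0.04 and 0.75 for all tested genes. The libraries of the stages did not overlap for 31 of the 33 genes, or 93.9%, beside 81.7% of all tested genes. Summed over all 38 genes, the level was 967.7 ± 5.85 CPM in Ls-6mm and 1442 ± 22.6 CPM in Ls-4mm (SD, n = 3 each).

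**Figure D1:**
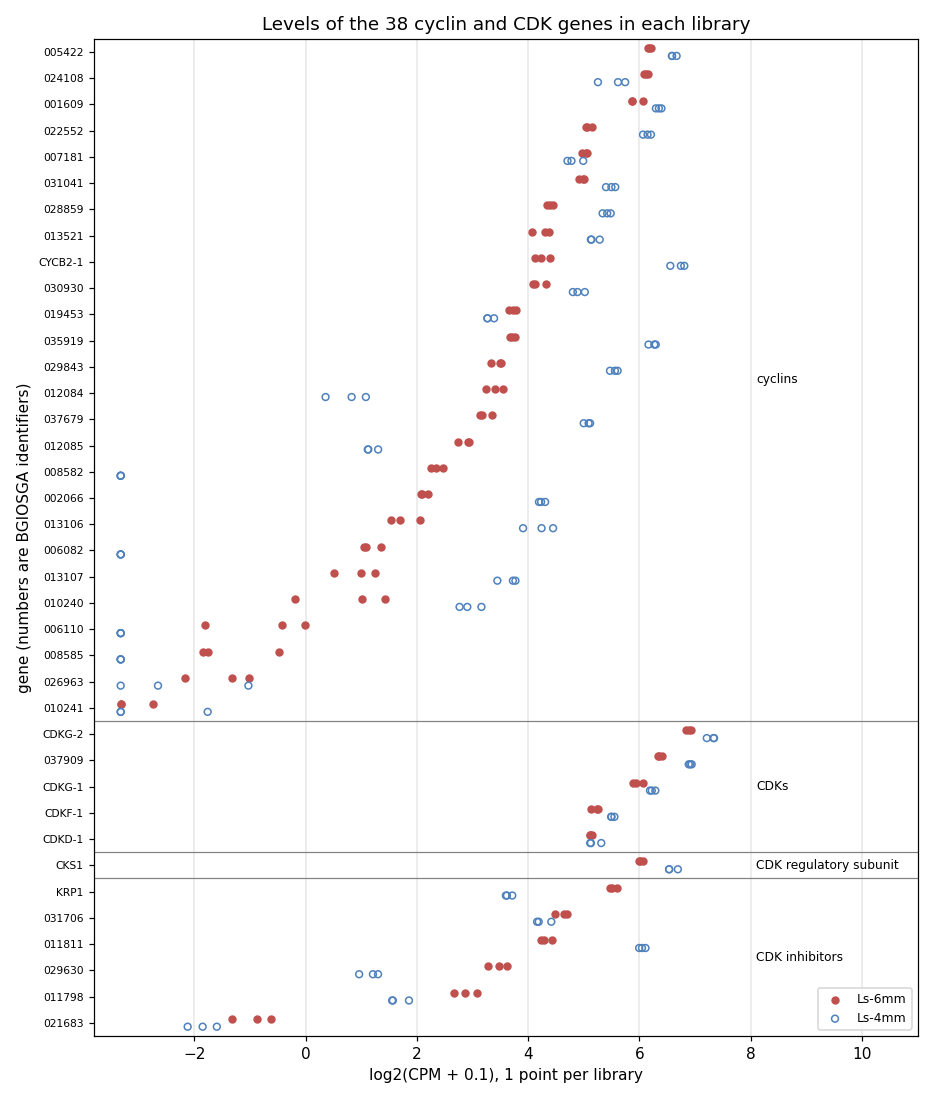
Level of the 38 genes in every library, as log2(CPM + 0.1), grouped by kind, with filled red circles for the 3 libraries of Ls-6mm and open blue circles for the 3 libraries of Ls-4mm. The circles of the stages stand apart for 31 of the 33 tested genes, CYCB2-1 lies at 19.0 CPM in Ls-6mm and 104.2 CPM in Ls-4mm, and 4 cyclins sit at 0 counts in every Ls-4mm library.

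The cyclins as a group were lower in Ls-6mm. All 22 tested cyclins were called, beside 80.6% of all tested genes. Of these cyclins, 15, or 68.2%, were lower and 7, or 31.8%, higher, beside 38.6% and 42.0% of all tested genes. The median log2 fold change of the cyclins was -0.83. Their summed level was 456.6, 461.8 and 462.6 CPM in Ls-6mm, against 788.8, 823.9 and 814.2 CPM in Ls-4mm, and the stages did not overlap. At least 2-fold changes made up 10 of the 15 falls and 4 of the 7 rises. These were 45.5% and 18.2% of the tested cyclins, beside 14.4% and 24.7% of all tested genes. Of the rises, 2 had 0 counts in every Ls-4mm library and passed the filter through Ls-6mm alone, so their direction was fixed. The direction was thus mixed among cyclins, and the sum moved with the members that fell.

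CYCB2-1 (BGIOSGA014544, chromosome 4, from 27014231 to 27016653), a mitotic B-type cyclin, is the single cyclin with a class in its name. It was measured at 18.8, 17.4 and 20.9 CPM in Ls-6mm, against 93.9, 111.7 and 107.0 CPM in Ls-4mm. The 3 Ls-6mm libraries lay far below the lowest Ls-4mm library. The level was 5.50-fold lower (log2 fold change -2.46 ± 0.07 SE, edgeR adjusted p = 8.25e-15). Among the cyclins it held 4.14% of the summed CPM in Ls-6mm and 12.9% in Ls-4mm.

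The other 25 cyclins carry only a domain in the table, the N-terminal cyclin box that contacts the CDK, the C-terminal domain, or both, so their cyclin class is not known here. BGIOSGA035919 (chromosome 12, from 20114733 to 20116490), with both domains, had 12.6, 13.02 and 13.5 CPM in Ls-6mm, against 71.5, 78.2 and 76.9 CPM in Ls-4mm. It was 5.79-fold lower (-2.53 ± 0.06, edgeR adjusted p = 6.82e-16), and its size of change and its level were close to those of CYCB2-1. BGIOSGA029843 (chromosome 9, from 11487235 to 11489972) had 11.3, 9.97 and 11.1 CPM in Ls-6mm, against 44.2, 48.7 and 47.0 CPM in Ls-4mm (-2.12 ± 0.08, edgeR adjusted p = 8.14e-14). BGIOSGA037679, on chromosome 12 with 43 gene models between it and BGIOSGA035919, had 8.73, 8.88 and 10.1 CPM in Ls-6mm, against 31.9, 33.9 and 34.5 CPM in Ls-4mm (-1.86 ± 0.08, edgeR adjusted p = 1.88e-12). These 3 genes, like CYCB2-1, kept a measurable level in every Ls-6mm library.

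Cyclins of lower abundance fell by similar factors. BGIOSGA013106 and BGIOSGA013107 lie 13730 bases apart on chromosome 3 with 2 gene models between them, and both have 1122 coding bases. BGIOSGA013107 had 2.27, 1.33 and 1.91 CPM in Ls-6mm, against 13.6, 10.8 and 13.1 CPM in Ls-4mm, the largest fall of any tested cyclin (-2.78 ± 0.18, edgeR adjusted p = 1.93e-10). BGIOSGA013106 had 2.81, 4.05 and 3.14 CPM in Ls-6mm, against 14.9, 21.7 and 18.8 CPM in Ls-4mm (-2.46 ± 0.16, edgeR adjusted p = 2.66e-10). Equal lengths this close together leave it possible that the models are near-identical copies between which reads were divided or lost, and their separate values are uncertain to that extent. BGIOSGA002066 on chromosome 1 had 4.49, 4.14 and 4.12 CPM in Ls-6mm, against 19.7, 18.2 and 18.7 CPM in Ls-4mm (-2.15 ± 0.11, edgeR adjusted p = 7.99e-12). BGIOSGA010240, also on chromosome 3, was the least even of the tested genes, with 13, 39 and 42 counts in the Ls-6mm libraries. Its 0.778, 1.92 and 2.58 CPM there were all below the 6.71, 8.84 and 7.40 CPM of Ls-4mm (-2.11 ± 0.25, edgeR adjusted p = 7.17e-07).

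A further pair of 2-domain cyclins was close to a 2-fold fall. BGIOSGA022552 on chromosome 6 had 35.4, 32.8 and 33.3 CPM in Ls-6mm, against 73.7, 66.8 and 70.6 CPM in Ls-4mm (-1.06 ± 0.06, edgeR adjusted p = 1.67e-11). BGIOSGA028859 on chromosome 8 had 20.1, 20.8 and 21.7 CPM in Ls-6mm, against 40.3, 42.7 and 44.6 CPM in Ls-4mm (-1.03 ± 0.07, edgeR adjusted p = 2.44e-10). The replicates of each stage lay close together for both genes.

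Another 5 cyclins fell by less than 2-fold, with log2 fold changes between -0.93 and -0.41. The most abundant of them was BGIOSGA005422 (chromosome 2, from 36190129 to 36197494), whose model joins a cyclin N-terminal domain to the domain of UMP1, a factor for proteasome maturation. It had 70.9, 73.5 and 71.6 CPM in Ls-6mm, against 95.8, 95.9 and 101.5 CPM in Ls-4mm (-0.44 ± 0.04, edgeR adjusted p = 6.69e-08). The counts do not tell which of the 2 domains' transcripts the reads came from. BGIOSGA001609 (chromosome 1, from 17430224 to 17435936), with the N-terminal domain alone, had 58.4, 66.7 and 57.9 CPM in Ls-6mm, against 84.0, 81.4 and 78.4 CPM in Ls-4mm (-0.41 ± 0.06, edgeR adjusted p = 3.74e-06). BGIOSGA013521 (-0.93 ± 0.08), BGIOSGA030930 (-0.73 ± 0.08) and BGIOSGA031041 (-0.52 ± 0.06) completed the group, with means of 18.1 to 31.3 CPM in Ls-6mm and 29.9 to 44.8 CPM in Ls-4mm. BGIOSGA013521 is the single member whose C-terminal domain is of another family (PF16899) than that of the rest.

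The 7 cyclins that were higher in Ls-6mm did not share a size of change. BGIOSGA012084 (chromosome 3, from 6147164 to 6149877) had 9.33, 11.5 and 10.5 CPM in Ls-6mm, against 2.02, 1.68 and 1.18 CPM in Ls-4mm, a 6.47-fold rise (2.69 ± 0.18, edgeR adjusted p = 3.90e-10). Its direct neighbour BGIOSGA012085, 1945 bases away on the same strand with 0 models in between, had 7.42, 7.55 and 6.58 CPM in Ls-6mm, against 2.08, 2.37 and 2.07 CPM in Ls-4mm (1.72 ± 0.16, edgeR adjusted p = 3.69e-08). Both genes carry both cyclin domains, their coding lengths are 810 and 1059 bases, and they were among the lowest tested members in Ls-4mm. Whether they share reads was not tested, since no sequence of the models was used here.

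BGIOSGA024108 (chromosome 7, from 20213449 to 20215154), with the N-terminal domain alone, had 70.9, 67.9 and 69.4 CPM in Ls-6mm, against 38.04, 53.4 and 48.9 CPM in Ls-4mm (0.56 ± 0.08, edgeR adjusted p = 8.93e-06). It was the most abundant of the cyclins that rose, and its Ls-4mm libraries were less even than its Ls-6mm libraries. BGIOSGA019453 on chromosome 5 had 12.6, 13.1 and 13.6 CPM in Ls-6mm, against 10.4, 9.53 and 9.53 CPM in Ls-4mm (0.42 ± 0.10, edgeR adjusted p = 0.00104). BGIOSGA007181 on chromosome 2 had 31.2, 33.1 and 32.9 CPM in Ls-6mm, against 31.7, 26.0 and 27.3 CPM in Ls-4mm, so the stages overlapped (0.20 ± 0.08, edgeR adjusted p = 0.0232). This call was lost without Ls-4mm replicate 2 (edgeR adjusted p = 0.138) or 3 (0.0925), without Ls-6mm replicate 2 (0.0748) or 3 (0.0664), with library size as the sole scaling (log2 fold change 0.06, adjusted p = 0.475), and with limma on log2(FPKM + 1) (adjusted p = 0.108).

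The remaining pair of called rises lies on chromosome 2 and had no count in any Ls-4mm library. BGIOSGA008582 (from 25394611 to 25401942), with the C-terminal domain alone, had 91, 95 and 81 counts in the Ls-6mm libraries, or 5.44, 4.69 and 4.98 CPM, against 0, 0 and 0 counts in Ls-4mm. Set against 3 counts over the Ls-4mm libraries together, or 0.0605 CPM, it was at least 83.2-fold higher (edgeR adjusted p = 3.36e-10). BGIOSGA006082 (from 25500533 to 25501705), with both domains, had 34, 40 and 40 counts in Ls-6mm, or 2.03, 1.97 and 2.46 CPM, against 0, 0 and 0 in Ls-4mm, and was at least 35.6-fold higher (edgeR adjusted p = 4.59e-08). These bounds cover counting error only. Both genes passed the filter through Ls-6mm alone, so their direction was fixed and the p-values add no support for it.

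Both genes sit in a stretch of 416053 bases of chromosome 2, from 25085653 to 25501705, that holds a further 2 cyclins too low to test. BGIOSGA006110, at the start of the stretch, had 15, 13 and 3 counts in Ls-6mm and 0, 0 and 0 in Ls-4mm, at least 9.49-fold higher. BGIOSGA008585 had 3, 4 and 10 counts in Ls-6mm and 0, 0 and 0 in Ls-4mm, at least 5.46-fold higher. All 4 cyclins of the stretch thus had counts in all 3 Ls-6mm libraries and in none of the 3 Ls-4mm libraries, a pattern shown by 4.9% of the 32548 genes with a count in any library. The stretch was chosen after its values had been seen. It holds 69 gene models, 55 of them with a count in any library. Of these, 9, the 4 cyclins included, had this pattern. Tested were 37, of which 21 were higher, 14 lower and 2 not called, beside 42.0% higher and 38.6% lower among all tested genes. The tested models with 0 counts in every Ls-4mm library passed the filter through Ls-6mm alone, so their direction was fixed. CDKG-1 lies between the cyclins, was measured in every library and fell.

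**Figure D2:**
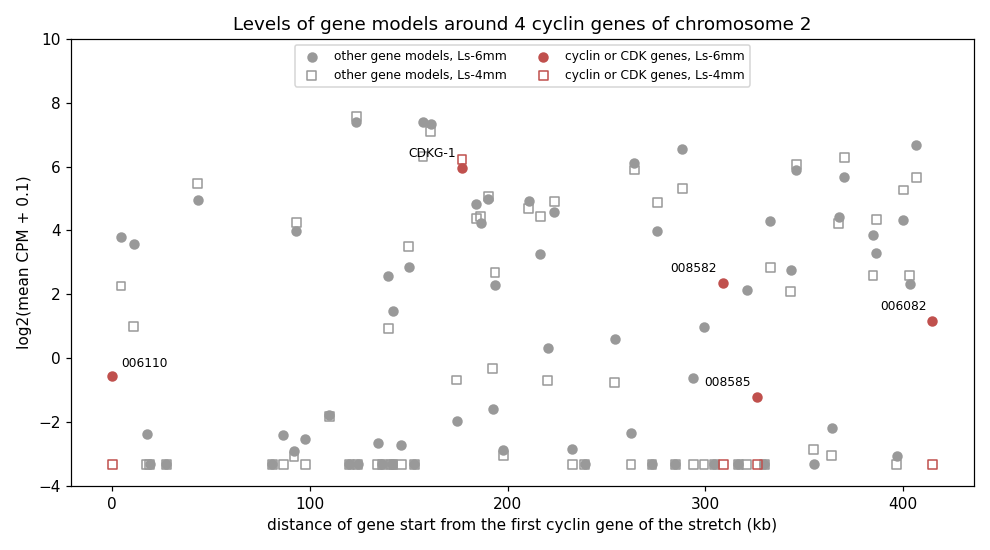
Mean level as log2(CPM + 0.1) of each of the 69 gene models of the chromosome 2 stretch, models with no count included. The horizontal axis is the distance of each start from that of BGIOSGA006110 in kb. Filled circles are Ls-6mm, open squares are Ls-4mm, and red marks the 4 cyclins and CDKG-1. The 4 cyclins have their Ls-4mm squares at 0 counts, while CDKG-1 is high in both stages.

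By domain, the cyclins that carry both the N-terminal and the common C-terminal domain had a larger median absolute change than those with no C-terminal domain. The C-terminal domain alone had 1 tested gene, BGIOSGA008582, given above. The table has 15 models with both the N-terminal and the common C-terminal domain. Of these, 13 were tested, 4 higher (30.8%) and 9 lower (69.2%), with a median absolute log2 fold change of 2.12. Of all tested genes, 42.0% were higher and 38.6% lower, with a median absolute change of 0.75. Among the 4 higher genes, BGIOSGA006082 had 0 counts in every Ls-4mm library and passed the filter through Ls-6mm alone, so its direction was fixed. The summed level of the 15 models was 149.0 ± 1.56 CPM in Ls-6mm and 361.8 ± 8.46 CPM in Ls-4mm. The 7 models with an N-terminal and no C-terminal domain had 6 tested, 2 higher (33.3%) and 4 lower (66.7%), with a median absolute change of 0.48. Their sum was 268.1 ± 6.73 CPM in Ls-6mm and 306.6 ± 3.48 CPM in Ls-4mm (SD, n = 3 each). The models with both domains therefore lost a larger part of their summed level, and the models with no C-terminal domain made up the larger part of the cyclin level in Ls-6mm. The sizes of change overlapped: BGIOSGA010240, with no C-terminal domain, had -2.11, and BGIOSGA019453, with both domains, had 0.42. The difference between the domain groups was not tested.

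**Figure D3:**
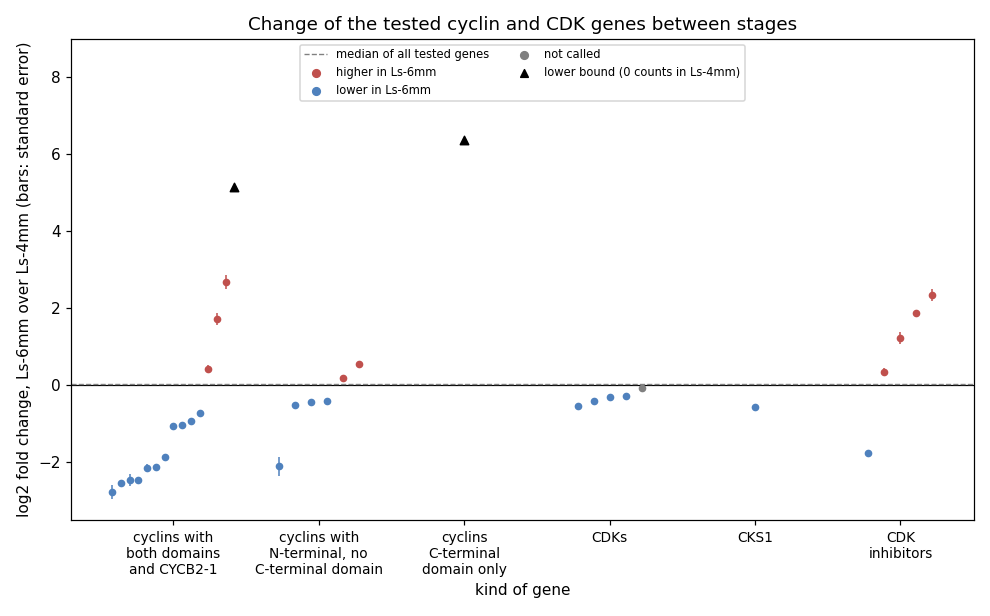
Log2 fold change, Ls-6mm over Ls-4mm, of the 33 tested genes by kind, with bars for the standard error, red for higher, blue for lower and grey for not called in Ls-6mm. Triangles are lower bounds for the 2 genes at 0 counts in Ls-4mm, and the dashed line is the median of all tested genes, 0.04. Cyclins with both domains and CYCB2-1 spread widely, and the CDKs lie between -0.55 and -0.07.

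The CDKs changed little beside the cyclins. Of 5 genes, 4 fell, by 0.27 to 0.55 on the log2 scale, and 1 was not called, and none changed by 2-fold. The 80.0% called was close to the 80.6% of all tested genes. The summed level of the CDKs was 333.8 ± 4.93 CPM in Ls-6mm and 434.2 ± 5.55 CPM in Ls-4mm (SD, n = 3 each). All 5 are of the classes D to G, and no gene described as the cell cycle kinases CDKA or CDKB met the rule.

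CDKG-2 (BGIOSGA016643, chromosome 4, from 22800857 to 22803622) had the highest CPM of all 38 genes. It was measured at 118.4, 120.8 and 114.4 CPM in Ls-6mm, against 161.9, 160.9 and 147.9 CPM in Ls-4mm (-0.41 ± 0.04, edgeR adjusted p = 1.80e-07). Its relative CDKG-1 (BGIOSGA008570, chromosome 2, from 25262506 to 25265124) had 58.98, 66.4 and 61.0 CPM in Ls-6mm, against 74.5, 72.9 and 77.9 CPM in Ls-4mm (-0.27 ± 0.05, edgeR adjusted p = 1.56e-04). In Arabidopsis, CDKG1 acts in splicing and in the pairing of chromosomes at meiosis. Neither gene had overlapping stages, and the larger fall of the G class was 1.33-fold.

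CDKE;1 (BGIOSGA037909, on the unplaced scaffold from 30775 to 34923) is related to the kinase of the Mediator complex, which links transcription factors to RNA polymerase II. It had 80.2, 81.9 and 84.9 CPM in Ls-6mm, against 118.1, 120.3 and 122.5 CPM in Ls-4mm, the largest fall among the CDKs (-0.55 ± 0.04, edgeR adjusted p = 2.03e-09). CDKF-1 (BGIOSGA021312, chromosome 6), which in Arabidopsis activates CDKD kinases, had 37.6, 35.0 and 37.9 CPM in Ls-6mm, against 44.9, 46.7 and 45.1 CPM in Ls-4mm (-0.31 ± 0.06, edgeR adjusted p = 9.75e-05). CDKD-1 (BGIOSGA019809, chromosome 5), a CDK-activating kinase, had 34.5, 35.2 and 34.3 CPM in Ls-6mm, against 39.7, 34.6 and 34.8 CPM in Ls-4mm. Its stages overlapped and it was not called (-0.07 ± 0.07, 95% interval -0.21 to 0.07, edgeR adjusted p = 0.356). With library size as the sole scaling it fell by 0.20 (adjusted p = 0.0108).

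The single CDK regulatory subunit, CKS1 (BGIOSGA011858, chromosome 3, from 3032215 to 3032686), had 66.9, 63.8 and 64.2 CPM in Ls-6mm, against 92.4, 103.1 and 92.5 CPM in Ls-4mm. It fell by 0.57 on the log2 scale (SE 0.05, edgeR adjusted p = 1.75e-08), close to the fall of CDKE;1. Its coding sequence is only 273 bases long. Per length it was the most abundant of the 38 genes in both stages, at 227.7 ± 5.79 FPKM in Ls-6mm and 346.2 ± 20.2 FPKM in Ls-4mm (SD, n = 3 each).

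The CDK inhibitors exchanged places while their sum stayed nearly level. Of 6 genes, 5 were tested and all 5 called, 4 higher and 1 lower in Ls-6mm, beside 80.6% of all tested genes called. Summed, they reached 108.0, 106.7 and 111.3 CPM in Ls-6mm, against 98.8, 101.7 and 108.5 CPM in Ls-4mm, and the stages overlapped. The mean ± SD was 108.7 ± 2.38 CPM in Ls-6mm and 103.0 ± 4.98 CPM in Ls-4mm (n = 3 each).

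KRP1 (BGIOSGA009097, chromosome 2, from 34164182 to 34165343), the single inhibitor with a name, had 48.3, 44.5 and 45.3 CPM in Ls-6mm, against 12.2, 12.02 and 13.02 CPM in Ls-4mm. It rose 3.71-fold (1.89 ± 0.07, edgeR adjusted p = 1.65e-13). BGIOSGA011811 (chromosome 3, from 2469702 to 2472297), known only by its inhibitor domain, had 19.3, 18.6 and 21.3 CPM in Ls-6mm, against 63.6, 65.9 and 68.9 CPM in Ls-4mm, and was 3.36-fold lower (-1.75 ± 0.06, edgeR adjusted p = 1.09e-13). Of the summed inhibitor level, KRP1 held 42.4 ± 2.10% in Ls-6mm and 12.1 ± 0.258% in Ls-4mm. BGIOSGA011811 held 18.2 ± 0.902% in Ls-6mm and 64.2 ± 0.697% in Ls-4mm (SD, n = 3 each). The leading inhibitor was thus a different gene in each stage, in every library.

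The other 3 tested inhibitors rose. BGIOSGA031706 (chromosome 10, from 16249744 to 16252754) had 22.1, 24.9 and 25.7 CPM in Ls-6mm, against 17.8, 18.1 and 21.2 CPM in Ls-4mm (0.35 ± 0.09, edgeR adjusted p = 0.00173). BGIOSGA029630 (chromosome 9, from 16062297 to 16063643) had 9.63, 11.1 and 12.2 CPM in Ls-6mm, against 2.21, 1.85 and 2.37 CPM in Ls-4mm, a 5.10-fold rise (2.35 ± 0.16, edgeR adjusted p = 4.37e-10). Its end overlaps that of a DnaJ-domain gene on the opposite strand, which stood at 14.7 CPM in Ls-6mm and 13.8 CPM in Ls-4mm, and no source says whether counting used strand, so reads at that end cannot be told apart. BGIOSGA011798 had 8.31, 7.20 and 6.27 CPM in Ls-6mm, against 2.87, 3.52 and 2.84 CPM in Ls-4mm (1.23 ± 0.16, edgeR adjusted p = 2.78e-06). It lies 160147 bases and 21 models from BGIOSGA011811 on chromosome 3, and the pair moved in opposite directions.

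**Figure D4:**
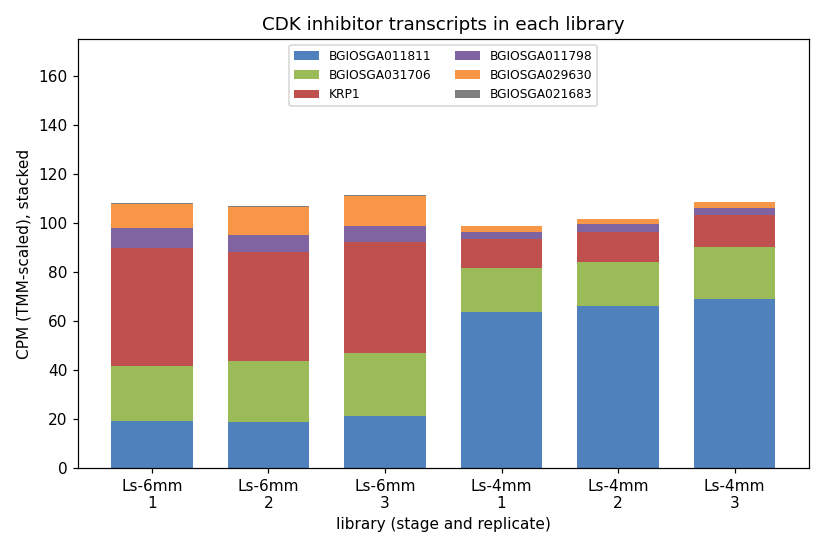
Level in CPM of the 6 CDK inhibitors, stacked in 1 bar per library, with the 3 libraries of Ls-6mm left of the 3 of Ls-4mm. The bars reach 106.7 to 111.3 CPM in Ls-6mm and 98.8 to 108.5 CPM in Ls-4mm, while KRP1 averages 46.0 CPM in Ls-6mm and 12.4 CPM in Ls-4mm, and BGIOSGA011811 averages 19.8 CPM in Ls-6mm and 66.1 CPM in Ls-4mm.

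The order of the genes within a stage was read from the deposited FPKM, which allow for coding length. After CKS1, the order in Ls-6mm went on with the cyclin BGIOSGA024108 at 82.9 ± 1.76 FPKM, BGIOSGA005422 at 62.6 ± 1.16 FPKM, KRP1 at 55.8 ± 2.40 FPKM, CDKE;1 at 55.2 ± 1.62 FPKM and CDKG-2 at 52.9 ± 1.45 FPKM (SD, n = 3 each). KRP1, CDKE;1 and CDKG-2 lay within about the spread of their libraries. In Ls-4mm, CKS1 was followed by BGIOSGA011811 at 92.8 ± 3.29 FPKM, BGIOSGA005422 at 87.4 ± 2.81 FPKM, CDKE;1 at 82.9 ± 1.17 FPKM and CYCB2-1 at 80.6 ± 6.56 FPKM, and the last pair did not differ beyond their spread. CYCB2-1 stood at place 21 in Ls-6mm and place 5 in Ls-4mm, and KRP1 at place 4 in Ls-6mm and place 24 in Ls-4mm.

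Besides BGIOSGA006110 and BGIOSGA008585, 3 members were too low to test. BGIOSGA026963 on chromosome 8 had 5, 8 and 2 counts in Ls-6mm and 6, 0 and 1 in Ls-4mm. BGIOSGA010241, with the C-terminal domain alone and 1 gene model away from BGIOSGA010240, had 0, 1 and 0 counts in Ls-6mm and 3, 0 and 0 in Ls-4mm. The inhibitor-domain model BGIOSGA021683, which also carries a cellulose synthase domain, had 5, 9 and 9 counts in Ls-6mm and 2, 4 and 3 in Ls-4mm. A difference between the stages was not detectable at this depth for these 3 genes.

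Genes that work with cyclins and CDKs were read from 7 lists, of which 3 matched genes of the table. RBR1 (BGIOSGA026573), the retinoblastoma-related protein that holds E2F factors in check until CDKs phosphorylate it, had 16.4, 14.8 and 15.4 CPM in Ls-6mm, against 166.7, 154.3 and 160.6 CPM in Ls-4mm. It was 10.3-fold lower (-3.37 ± 0.05, edgeR adjusted p = 2.14e-18), a larger fall than that of any of the 38 genes. Of the 8 genes of the list of E2F, DP and retinoblastoma-related proteins, 0 were higher and 6 lower, with a median of -0.60. The 75.0% called was below the 80.6% of all tested genes, and RBR1 was the 1 gene, or 12.5%, with a fall of at least 2-fold, beside 14.4% of all tested genes. BGIOSGA001024, with E2F and DP domains, had 30.5, 29.99 and 29.2 CPM in Ls-6mm, against 58.1, 59.3 and 58.8 CPM in Ls-4mm (-0.97 ± 0.05, edgeR adjusted p = 2.71e-11).

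The anaphase-promoting complex marks mitotic cyclins for degradation. Of the 5 genes listed for it by description, 0 were higher and 4 lower, with a median of -0.52. The most abundant in CPM, BGIOSGA011471 (-0.17 ± 0.05), is described only by a WD40 domain named for subunit 4. Its place in the complex is not known here. The 80.0% called was close to the 80.6% of all tested genes, and 1 gene fell by at least 2-fold. Subunit 10 (BGIOSGA020429) had 10.4, 12.4 and 9.90 CPM in Ls-6mm, against 21.8, 24.2 and 23.1 CPM in Ls-4mm (-1.07 ± 0.10, edgeR adjusted p = 2.17e-08). Genes with the Mad3/BUB1 region of the spindle checkpoint, which holds that complex back until chromosomes are attached, were both lower. BGIOSGA007719 had 16.1, 12.3 and 11.4 CPM in Ls-6mm, against 44.0, 48.7 and 47.0 CPM in Ls-4mm (-1.82 ± 0.10, edgeR adjusted p = 1.50e-11). BGIOSGA006118 averaged 0.530 CPM in Ls-6mm and 3.45 CPM in Ls-4mm (-2.65 ± 0.27, edgeR adjusted p = 1.07e-07).

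Markers of the cell types of the anther differed between the stages, with lower sums in Ls-6mm for the replication and meiocyte lists and higher sums for the tapetum and green wall lists. Of 17 genes for DNA replication outside the 38, 14 were tested and all 14 were lower, beside 38.6% of all tested genes. At least 2-fold lower were 12 of the 14, or 85.7%, beside 14.4% of all tested genes. The list had sums of 354.2 to 371.1 CPM in Ls-6mm and 1568 to 1589 CPM in Ls-4mm. Among the 14 were the licensing factors MCM2, MCM3, MCM5, MCM6 and MCM7, which load at replication origins, with log2 fold changes between -2.86 and -2.73. Of 30 genes on the tapetum list, 18 were tested, but 10 of these had 0 counts in every Ls-4mm library and passed the filter through Ls-6mm alone, so their direction was fixed and calls are not counted. The list had sums of 699 to 719.9 CPM in Ls-6mm and 204.1 to 238.3 CPM in Ls-4mm. Most of this rise was that of BGIOSGA009804, at 466.8 CPM in Ls-6mm and 111.0 CPM in Ls-4mm. Of the 8 tested genes seen in both stages, 2 were not called (log2 fold changes 0.11 and -0.35), 1 fell (-2.02) and the others rose. In every Ls-4mm library, 18 genes of the list were at 0 counts, and 5 of these, polyketide synthase-like, were at 0 in every Ls-6mm library too. The tapetum list rests on the domains of strictosidine synthase and polyketide synthase, which are not limited to that tissue. Of 46 genes for the photosynthesis of the green anther wall, 41 were tested, 36 higher and 4 lower. The higher genes were 87.8% of those tested, beside 42.0% of all tested genes. This list had sums of 5241 to 5461 CPM in Ls-6mm and 2178 to 2517 CPM in Ls-4mm. It rests on descriptions of chlorophyll-binding and photosystem proteins, which do not name a tissue. BGIOSGA003922 alone averaged 1496 CPM in Ls-6mm and 392.4 CPM in Ls-4mm. Of 5 genes on the meiocyte list, 0 were higher and 3 lower, and none was at 0 throughout a stage. The part called was below the 80.6% of all tested genes, and the part lower above their 38.6%. The list had sums of 31.1 to 35.6 CPM in Ls-6mm and 86.4 to 98.1 CPM in Ls-4mm. Most of this fall was that of BGIOSGA014841 (HORMA domain), at 9.53 CPM in Ls-6mm and 56.1 CPM in Ls-4mm. The other 2 lower genes, BGIOSGA028336 and BGIOSGA028337, carry Rad21/Rec8 domains. The first ends at 11309455 and the second starts at 11309687 of chromosome 8. Whether they are 1 gene was not tested. These domains do not name a cell type. SPO11-1, which makes the DNA breaks of meiosis, was measured in every library and was not called, nor was the homolog of meiotic nuclear division protein 1. The part of these cell types in the changes of the cyclins and CDKs was not tested.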

How the data were processed

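The RNA-seq libraries of anthers were grouped by stage from their titles and ages, 3 of Ls-6mm and 3 of Ls-4mm. According to the methods and the submitters' processing notes, the authors aligned reads with HISAT2 2.0.5 and counted them with featureCounts 1.5.0-p3. The deposited count values are raw whole numbers per gene. For protein-coding genes, the deposited FPKM values were scaled by the authors by coding length, since all lengths of these genes are multiples of 3. The assembly behind the positions and the strand setting are not given in the sources used here. Per-sample values in 36 other columns were left unused, and columns of the authors' own comparisons, which hold fold changes and p-values, were left out.

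Counts were fitted in R 4.3.3 with edgeR 4.0.16 on the whole table: filterByExpr (minimum count 10, minimum total count 15), TMM scaling, and stage as the only term of a quasi-likelihood model. P-values were adjusted by Benjamini-Hochberg over 23691 genes and called under 0.05. CPM use TMM-scaled library sizes and are set between stages, and FPKM between genes. A stage at 0 was given a floor of 3 counts over its libraries. The fit was tested on simulated data. Replicate pairs of each stage differed by more than sampling noise. Alternatives were DESeq2 1.42.0, limma 3.58.1 on log2(FPKM + 1), other scalings, filters and thresholds, a replicate block, and leaving out each library in turn. Same-numbered libraries did not deviate together.

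The members and lists were chosen with earlier results of these data known. By the naming rule, 18 genes were named: in each class the 3 highest by FPKM, the largest called change, and members called against the direction of most of their class. The other 15 tested members, the neighbour pairs and the chromosome 2 stretch were named after their values had been seen. The search words for WEE1 and CDC25, origin licensing (ORC, CDC6, CDT1 and geminin), three-repeat MYB and cytokinesis genes matched no description and gave no value, and the MCM licensing factors were counted among the genes for DNA replication.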

Additional observations from a re-analysis of the deposited data

How the results depend on the processing

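With DESeq2, no filter, a minimum of 10 counts per library, RLE size factors, library size as the sole scaling and limma, the counts of cyclin and CDK genes called in each direction stayed within 1.5 times those reported. With the replicate block the counts were 11 higher and 21 lower, of them 7 higher and 15 lower cyclins, 4 lower CDKs, and 4 higher and 1 lower inhibitors, and it changed no call of a named gene (79.5% of all genes called). Leaving out each library gave 10 to 12 higher and 21 lower genes, with 6 to 8 cyclins higher. BGIOSGA006110 became tested and higher without any one Ls-4mm library or without Ls-6mm replicate 3. It had 0 counts in every Ls-4mm library and passed the filter through Ls-6mm alone, so its direction was fixed. At an adjusted p of at most 0.001 with a 2-fold change, 7 genes were higher and 11 lower (36.9% of all genes), with 4 higher cyclins, 0 lower CDKs, 1 lower gene of the E2F list and 1 of the anaphase-promoting complex. With at least 10 counts in every library, 1 spindle checkpoint gene was lower. Members with a class in their name were 1 higher and 6 lower. The summed levels had log2 ratios of -0.81 for cyclins, -0.38 for CDKs, -0.56 for CKS1 and 0.08 for inhibitors. With library size as the sole scaling they were -0.95, -0.52, -0.70 and, reversed, -0.06, and the median of all genes moved to -0.10, and summed FPKM gave -0.42 for CDKs. Leaving out each library gave -0.83 to -0.80, -0.39 to -0.37, -0.59 to -0.51 and 0.05 to 0.12. Of the single genes, BGIOSGA007181 lost its call in 6 settings and CDKD-1 gained one in 1. Depth limits the 5 untested genes.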

Other observations

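A further family of cyclins in the table, described by the domain PF08613, carries neither of the domains used above, and its plant members are known as partners of CDKA and in phosphate signalling. It was added after the values had been seen, and 7 genes carried it. Of the 6 tested, 5 were higher and 1 lower in Ls-6mm, or 83.3% higher beside 42.0% of all tested genes. The summed level was 131.1 to 138.7 CPM in Ls-6mm and 40.8 to 44.3 CPM in Ls-4mm. BGIOSGA033453 had 43.3, 39.6 and 45.9 CPM in Ls-6mm, against 2.93, 7.05 and 4.97 CPM in Ls-4mm (log2 fold change 3.08 ± 0.15 SE, edgeR adjusted p = 7.56e-12). BGIOSGA016892 had 35.7, 35.3 and 34.4 CPM in Ls-6mm, against 5.08, 6.07 and 6.21 CPM in Ls-4mm (2.60 ± 0.09, edgeR adjusted p = 5.60e-14). BGIOSGA007430 had 21.8, 19.8 and 18.3 CPM in Ls-6mm, against 0.326, 0.578 and 0.296 CPM in Ls-4mm (5.61 ± 0.19, edgeR adjusted p = 4.44e-14). The stages stood far apart for these 3 genes, while BGIOSGA018099 differed by -0.18 ± 0.08 (edgeR adjusted p = 0.0404).

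MAT1 assembles the CDK-activating kinase that CDKD forms. Both genes with its domain, added after the values had been seen, were lower in Ls-6mm. BGIOSGA034016 had 8.67, 8.19 and 8.92 CPM in Ls-6mm, against 14.6, 14.1 and 12.2 CPM in Ls-4mm (-0.67 ± 0.11, edgeR adjusted p = 2.59e-05). BGIOSGA022395 had 6.10, 7.40 and 7.38 CPM in Ls-6mm, against 8.27, 9.82 and 8.64 CPM in Ls-4mm (-0.36 ± 0.13, edgeR adjusted p = 0.0183), while CDKD-1 itself was not called.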
